A study of Mus musculus with 21 samples.

Results

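The comparison described here sets mouse osteoblast cultures given bPTH(3-34) directly against cultures given hPTH(1-34), both at 100 nM for 4 h, on 3 arrays each. These 6 arrays of the 21 in the study were chosen by their treatment label, and every gene symbol of the deposited table was used, with 1 row per symbol, which gave 22180 genes. It asks which parts of the hormone response need the first 2 residues of the peptide. bPTH(3-34) is the bovine sequence and hPTH(1-34) the human one, so the loss of 2 residues and the difference in species cannot be told apart in these arrays.

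All cultures, the vehicle cultures included, were cells released by enzyme from the skull bones (calvaria) of C57BL/6J mice aged 7 to 10 days. They were passaged to passage 2, differentiated from day 3 with β-glycerophosphate and ascorbic acid, and kept without serum for 24 h from day 10, and treatment was in serum-free medium. Each replicate came from its own cell preparation, and RNA (100 ng) was hybridised to Affymetrix Mouse Gene 2.0 ST arrays. Besides the 2 fragments compared, the study had 3 arrays each of vehicle, hPTH(1-31), PTH(1-36) and hPTH(7-34), the last 3 also at 100 nM, and of a bovine PTH(7-34) amide with substitutions at residues 12 and 34. That amide was used at 1000 nM and is not compared with the 100 nM peptides here. The cultures are mixed: Col1a1, the main bone collagen chain, had a mean log2 signal of 13.23, and Csf1r, the macrophage colony-stimulating factor receptor, one of 10.17 over the 21 arrays. Bglap (osteocalcin) and Sost (sclerostin), which mark mature osteoblasts and osteocytes, were low, with mean log2 signals of 3.61 and 3.60. In such bulk samples, fewer cells of a type and less RNA per cell cannot be told apart.

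Parathyroid hormone acts on osteoblasts through PTH1R, a receptor that couples to Gs and adenylyl cyclase and also to Gq and phospholipase C. The first residues of the hormone reach into the receptor core and are needed for strong cyclic AMP signalling, while the rest of the fragment holds the receptor's outer domain. In osteoblasts, cyclic AMP and protein kinase A act on the transcription factor CREB and raise, among others, the NR4A orphan nuclear receptors and the osteoclast-forming cytokine RANKL.

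The fragments differed at 2068 of 22180 genes (9.32% of the genes tested) at an adjusted p under 0.05 in limma, with p-values adjusted by Benjamini-Hochberg over all genes, which is what "called" means throughout. With bPTH(3-34), 874 genes were lower (3.94%) and 1194 higher (5.38%). The larger differences lay more often on the lower side. At 2-fold or more, 180 genes were lower and 72 higher, and at 1.5-fold or more 431 were lower and 394 higher. The 95% interval of the difference lay within 1.5-fold in either direction for 15128 genes (68.2%), and the median difference over all genes was 0.0033 on the log2 scale. Against vehicle, bPTH(3-34) had 0 called genes (0%). There the smallest adjusted p was 0.446, 1313 genes (5.92%) had an unadjusted p under 0.05, and the interval lay within 1.5-fold for 17365 genes (78.3%). hPTH(1-34) had 1917 called genes against the same vehicle arrays (8.64%).

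**Figure D1:**
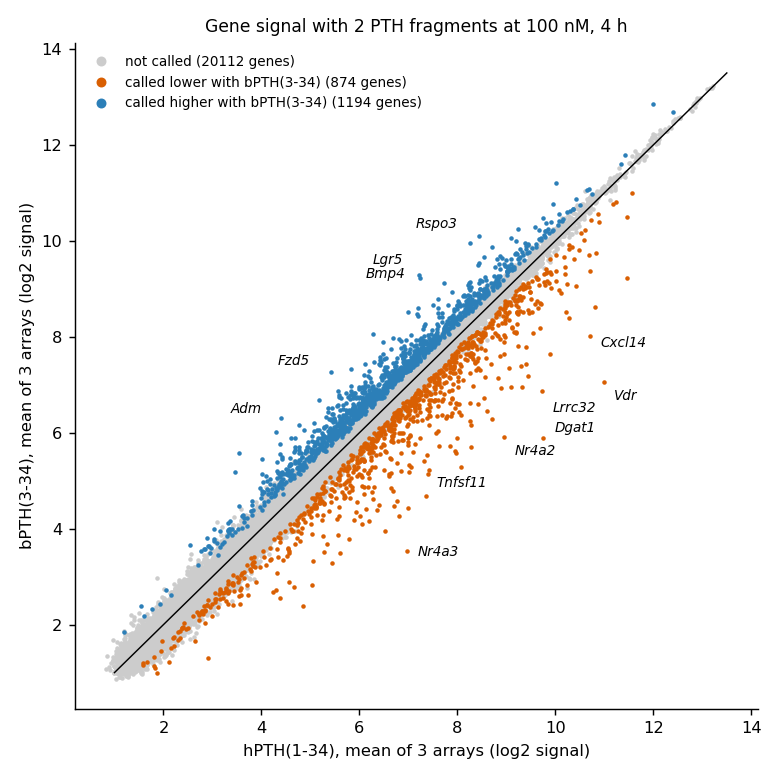
Mean log2 signal of each of 22180 genes with hPTH(1-34) (x axis) and bPTH(3-34) (y axis), 3 arrays each, with the line of equal signal. The 874 genes called lower with bPTH(3-34) reach farther from the line than the 1194 called higher, and most genes called in either direction have a signal above 4.

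The arrays of each group correlated at 0.9914 to 0.9933 over the 22180 genes for the 2 fragments. Their lower quartiles over all transcript clusters differed slightly, at 2.19 to 2.24 with bPTH(3-34) and 2.26 to 2.28 with hPTH(1-34). The sign of small differences moved with signal: among the 5545 genes of lowest signal the median difference between the fragments was -0.0567 with 51 genes called lower and 7 higher, and among the 5545 of highest signal it was 0.0667 with 432 lower and 661 higher. The part of this shift in the calls was not tested. After quantile normalization, an alternative chosen after the data were seen, 1973 genes were called, 976 lower and 997 higher.

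Vdr, Dgat1, Nr4a3 and Nr4a2 stood farthest apart on the lower side, with bPTH(3-34) arrays near vehicle arrays. Vdr encodes the vitamin D receptor (transcript cluster 17321078). Its log2 signal was 7.05, 7.23 and 6.88 with bPTH(3-34), 10.93, 11.07 and 10.95 with hPTH(1-34), and 7.24, 7.24 and 7.00 with vehicle. The bPTH(3-34) arrays lay among the vehicle arrays or just below them, 15.2-fold below hPTH(1-34) (log2 difference -3.93, 95% interval -4.15 to -3.71, adjusted p = 2.1e-14). Dgat1 makes triacylglycerol from diacylglycerol (cluster 17318502). Its log2 signal was 5.84, 5.88 and 5.97 with bPTH(3-34), 9.81, 9.68 and 9.78 with hPTH(1-34), and 6.00, 5.63 and 5.65 with vehicle. Here the bPTH(3-34) and vehicle arrays overlapped, and bPTH(3-34) was 14.5-fold below hPTH(1-34) (adjusted p = 2.1e-14).

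Lrrc32 holds latent TGF-beta at the cell surface (cluster 17480485). It had a log2 signal of 6.94, 6.97 and 6.73 with bPTH(3-34), 9.71, 9.81 and 9.68 with hPTH(1-34), and 6.65, 6.83 and 6.86 with vehicle. The fragments differed 7.23-fold (adjusted p = 8.5e-13), with no overlap. Cxcl14 is a chemokine (cluster 17293006), at 7.99, 8.08 and 8.0 with bPTH(3-34) and 10.82, 10.85 and 10.44 with hPTH(1-34), a 6.41-fold difference, and at 8.0, 8.11 and 7.92 with vehicle. Prg4 encodes lubricin, the lubricating proteoglycan of joint surfaces (cluster 17227892). Arrays read 5.84, 5.58 and 5.67 with bPTH(3-34) against 8.43, 8.28 and 8.15 with hPTH(1-34), a 6.02-fold difference, and 6.06, 6.05 and 5.87 with vehicle. For Prg4 all 3 bPTH(3-34) arrays also lay below all 3 vehicle arrays, by 0.30 on average, a difference that was not called. The remaining genes of the 12 lowest were Cbarp (6.88-fold), the iodotyrosine deiodinase gene Iyd (5.92-fold), Baalc (5.87-fold) and the kinesin gene Kif21a (5.84-fold), with Nr4a3, Nr4a2 and Tnfsf11 described below.

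On the higher side the 12 genes farthest apart included Lgr5, Fzd5, Rspo3 and Rspo2 of Wnt signalling, and Bmp4 and Bmp2. Lgr5 encodes a receptor for R-spondins, which strengthen Wnt signalling (cluster 17245059). Its log2 signal was 9.31, 9.26 and 9.31 with bPTH(3-34), 7.29, 7.20 and 7.19 with hPTH(1-34), and 9.31, 9.31 and 9.29 with vehicle. The bPTH(3-34) arrays matched vehicle to within 0.05 on the log2 scale and lay 4.19-fold above hPTH(1-34) (adjusted p = 9.8e-13). A second Lgr5 cluster of lower signal differed by 0.78 on the log2 scale, against 2.07 in the one used. Bmp4 encodes a bone morphogenetic protein (cluster 17305709). Its signal was 9.29, 9.32 and 9.05 with bPTH(3-34), 7.39, 7.18 and 7.14 with hPTH(1-34), and 9.27, 9.36 and 8.98 with vehicle. The fragments differed 3.95-fold with no overlap (adjusted p = 5.2e-08). Adm, for the vasodilator peptide adrenomedullin, was at 6.16, 6.25 and 6.49 against 4.45, 4.10 and 4.64, a 3.74-fold difference. Others of the 12 were Dusp27 (4.12-fold), Rtl3 (3.47-fold), Gprin3 (3.30-fold) and the filamin-binding refilin gene Rflnb (2.84-fold), besides the R-spondins, Fzd5, Bmp2 and Cemip below.

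**Figure D2:**
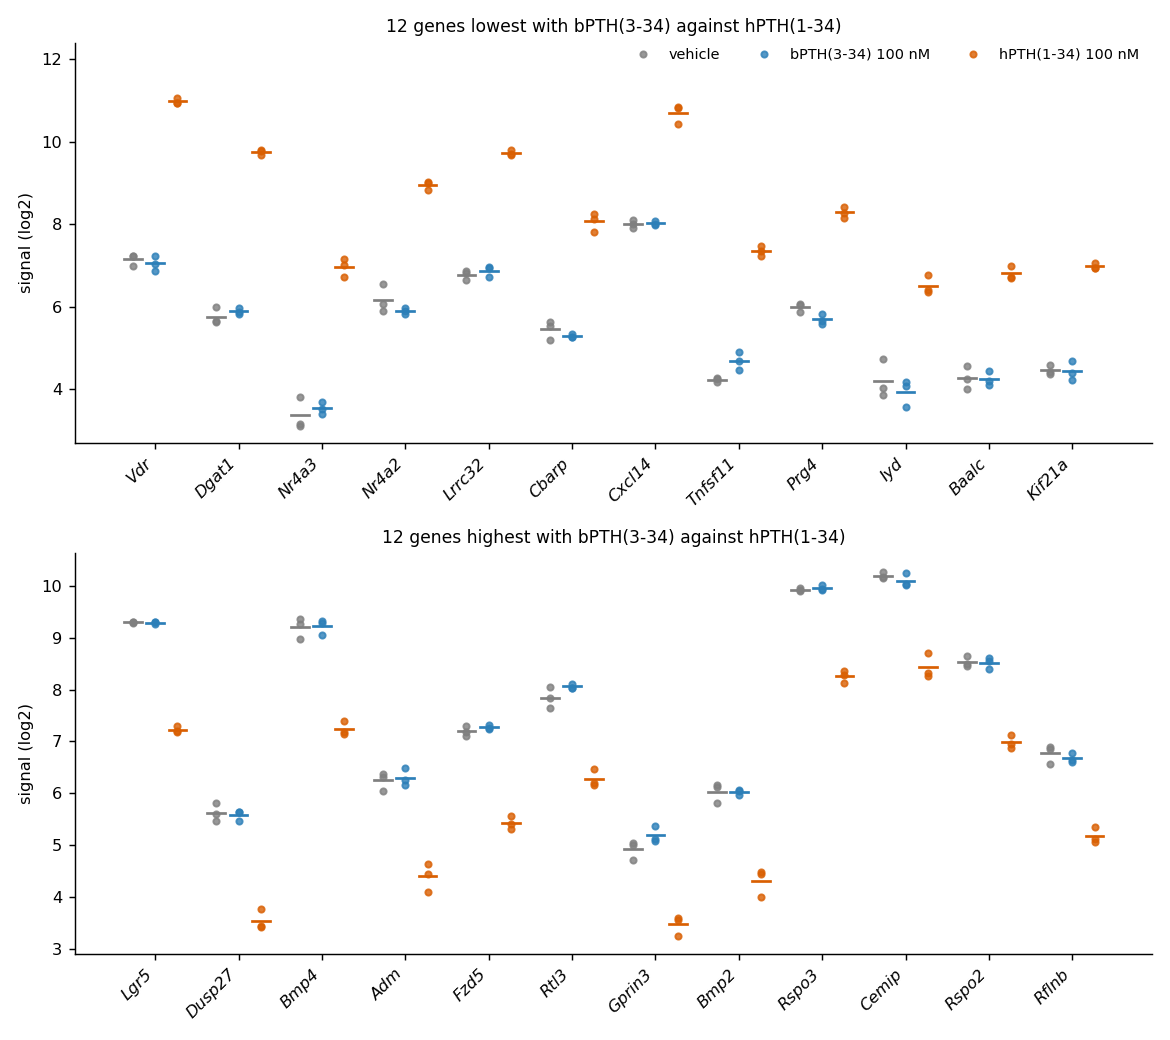
Log2 signal of the 12 genes lowest (top) and the 12 highest (bottom) with bPTH(3-34) against hPTH(1-34); each point is 1 array, each bar the mean of 3, in vehicle (grey), bPTH(3-34) (blue) and hPTH(1-34) (orange). The blue points sit nearer the grey ones than the orange ones, as for Vdr at 7.05, 7.23 and 6.88 against 10.93, 11.07 and 10.95. At Prg4 all blue points lie below the grey ones, and at Tnfsf11 all lie above them.

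To follow the hormone response on arrays that this comparison does not use, response genes were taken as those called the same way with hPTH(1-31) and PTH(1-36) against vehicle, at 1.5-fold or more in both. There were 574, of which 351 were raised and 223 lowered. Between the 2 fragments 535 of them (93.2%) were called with bPTH(3-34) on the side of the vehicle level, against 9.32% of all genes called in either direction. These were 334 of 351 raised genes, lower with bPTH(3-34), and 201 of 223 lowered genes, higher with it, and 0 were called the other way. The median difference between the fragments was -0.99 for raised and 0.81 for lowered genes on the log2 scale. The response genes share one spread estimate per gene with the direct comparison, since all arrays entered 1 model.

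Against vehicle, the median of the raised response genes was 0.04 with bPTH(3-34) and 1.00 with hPTH(1-34), and that of the lowered genes -0.01 and -0.81, on the log2 scale. The vehicle arrays that helped choose these genes also enter those medians. The interval of bPTH(3-34) against vehicle lay within 1.5-fold for 512 of the 574 (89.2%), and 46 (8.01%) had an unadjusted p under 0.05. Thus 62 response genes had an interval reaching past 1.5-fold, which leaves room for a change of that size.

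**Figure D3:**
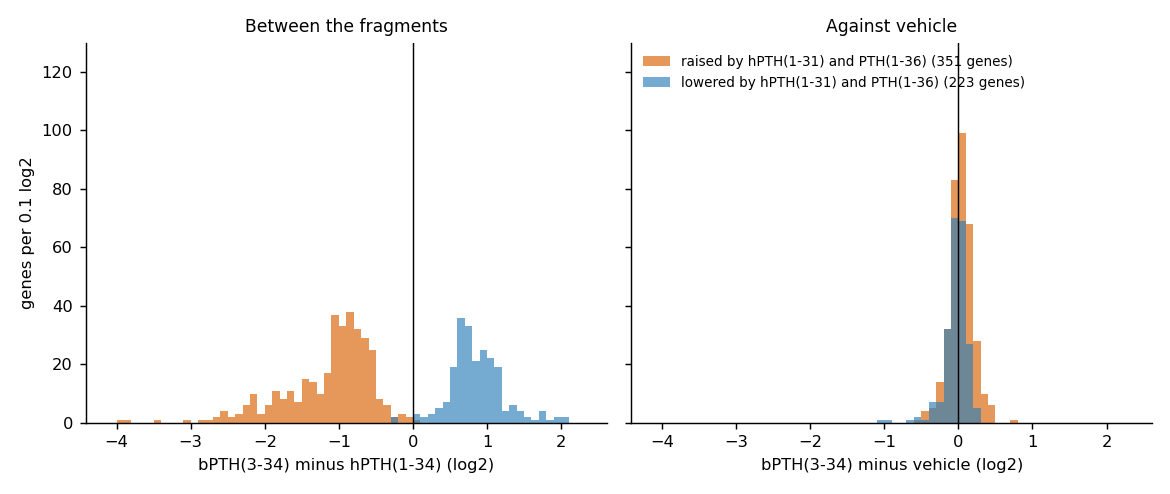
Number of response genes per 0.1 log2 by their difference between bPTH(3-34) and hPTH(1-34) (left) and between bPTH(3-34) and vehicle (right), for the 351 genes raised (orange) and the 223 lowered (blue) by hPTH(1-31) and PTH(1-36). The sets part to medians of -0.99 and 0.81 on the left and lie at 0.04 and -0.01 on the right.

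Another 39 response genes were not called between the fragments, 17 raised and 22 lowered ones. Their median log2 signal was 4.53, against 6.62 for the called ones, and 13 of them had intervals within 1.5-fold. The 8 with the largest changes under hPTH(1-31) and PTH(1-36) were Ptprb, Gzmb, Klk1, Slc22a2, Ankrd34a, Tek, Pkp1 and Sh3rf2. Klk1, a kallikrein protease gene of very low signal, was at 1.68, 0.93 and 2.41 with bPTH(3-34), 1.60, 2.19 and 1.05 with hPTH(1-34), and 2.77, 3.14 and 2.36 with vehicle. The 2 fragments overlapped fully (difference 0.06, interval -0.63 to 0.75), and bPTH(3-34) lay 1.08 below vehicle on average without being called (adjusted p = 0.69). Ptprb, a receptor phosphatase gene of endothelium, was at 3.65, 4.15 and 4.01 with bPTH(3-34), 4.29, 4.73 and 4.81 with hPTH(1-34), and 3.27, 3.88 and 3.33 with vehicle. Its bPTH(3-34) arrays lay below all hPTH(1-34) arrays (difference -0.67, interval -1.12 to -0.23), just past the threshold at an adjusted p of 0.055. For Gzmb, Tek, Pkp1 and Sh3rf2 the intervals of the difference also left out 0, at -0.67, 0.49, -0.49 and 0.35, but none was called.

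Genes are next taken by role, from 24 pathway lists and 7 cell type lists. All 31 lists had 0 members called between bPTH(3-34) and vehicle. The share of members called between the fragments is to be read against the 9.32% of all genes: it was 58.8% for the clock, 56.2% for osteoclast-regulating factors and 48.3% for immediate early factors, but 9.09% for interferon-stimulated genes and 3.70% for macrophage and osteoclast markers. The share over all genes itself rose with signal, from 1.05% of the 5545 genes of lowest signal to 19.7% of the 5545 of highest. A fit of only the 12217 genes with a mean log2 signal of 4 or more called 21.8%. The shares of the vitamin D (20%), lipid storage (21.4%), cell cycle (23.5%) and receptor (23.8%) lists come from the fit of all genes instead. In the fit of 12217 genes the vitamin D list had 3 lower and 2 higher of 13 members, and lipid storage 3 and 4 of 22. The receptor list had 2 lower and 3 higher of 19 there, and the cell cycle list 1 and 13 of 34. A list counts only as a description here, with no test of its own. After quantile normalization the small positive medians of the cyclic AMP and the BMP and TGF-beta lists given below, both 0.03, became -0.02 and -0.01. List medians near 0 turned sign with 1 array left out too: BMP and TGF-beta to -0.01 without bPTH(3-34) replicate 2, cyclic AMP to -0.03 and -0.02 without hPTH(1-34) replicate 1 and 2, MAP kinase feedback to 0.01 without bPTH(3-34) replicate 1 and 0.03 without hPTH(1-34) replicate 1, and glucose use to -0.01 without bPTH(3-34) replicate 3 and -0.03 without hPTH(1-34) replicate 3.

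**Figure D4:**
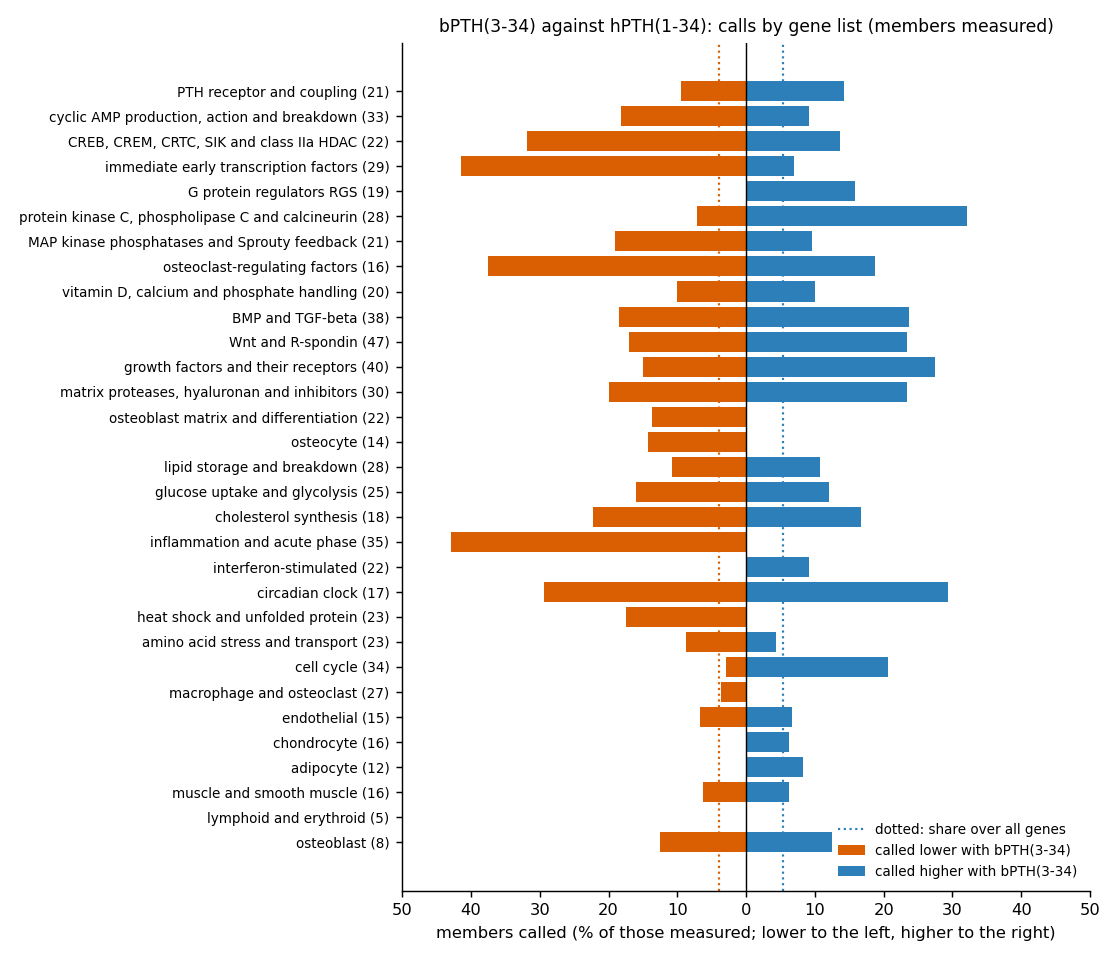
Share of the measured members of each of 31 gene lists called lower (orange, to the left) and higher (blue, to the right) with bPTH(3-34) against hPTH(1-34), in percent of members; dotted lines mark 3.94% and 5.38%, the shares over all genes. The longest bars to the left are those of inflammation (15 of 35) and immediate early factors (12 of 29).

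At the receptor, 2 of 21 measured members were lower with bPTH(3-34) and 3 higher, with a median log2 difference of 0.08. Pth1r itself was higher: its log2 signal was 7.06, 7.12 and 6.99 with bPTH(3-34), 6.40, 6.04 and 5.89 with hPTH(1-34), and 7.20, 7.30 and 7.12 with vehicle. The fragments did not overlap at Pth1r and differed 1.93-fold (adjusted p = 3.2e-05). Ramp3, whose protein modifies receptors of the calcitonin family, was at 4.13, 4.23 and 4.10 against 6.26, 6.01 and 6.33, 4.13-fold lower, with vehicle at 4.44, 4.42 and 4.16. Gprc5a, an orphan receptor gene, was 3.11-fold lower, and Gnai1, for an inhibitory G protein subunit, 1.62-fold higher. The third higher call was Gna12 (1.22-fold), named outside the naming rule after its values were seen. Gna12 was lost on leaving out any 1 of the 6 arrays, and after quantile normalization, which left 2 higher calls.

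Of 33 genes that make, sense or break down cyclic AMP, 6 were lower and 3 higher (median 0.03). The lower calls were all phosphodiesterases, which degrade cyclic nucleotides. Pde10a was at 5.29, 5.53 and 5.44 with bPTH(3-34), 7.42, 7.20 and 7.33 with hPTH(1-34), and 5.32, 5.17 and 5.31 with vehicle, a 3.72-fold difference without overlap (adjusted p = 1.9e-10). Pde3b was 2.88-fold, Pde4b 1.93-fold and Pde4d 1.92-fold lower, and the others, named after their values were seen, were Pde7b (1.88-fold) and Pde1a (1.54-fold). On leaving out any 1 of the 6 arrays the lower calls came to 5, with Pde10a, Pde3b, Pde4b and Pde4d called each time. The 3 higher calls, outside the rule too, were Pkia, Adcy8 and Prkar2b. They came to 1 without bPTH(3-34) replicate 1, bPTH(3-34) replicate 2 or hPTH(1-34) replicate 2, and to 0 without hPTH(1-34) replicate 1.

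Among 22 members of the CREB, CREM, SIK and class IIa HDAC group, 7 were lower and 3 higher (median -0.06). Crem, whose product ICER is a cyclic AMP-induced repressor, was 1.96-fold lower (log2 difference -0.97, interval -1.23 to -0.72). Sik1 and Sik3, kinases that hold CREB coactivators in the cytoplasm, were 2.10-fold and 1.65-fold lower. Hdac4, a deacetylase that those kinases act on, was 2.10-fold lower, and Cited1, a transcriptional coactivator gene, 2.23-fold lower. The higher calls, named outside the rule, were Mef2a, Mef2c and Cited2, at 1.40-fold, 1.46-fold and 1.53-fold. On leaving out any 1 of the 6 arrays the lower calls came to 6.

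Of 29 immediate early transcription factors, 12 were lower and 2 higher (median -0.27, against 0.0033 over all genes). The 3 NR4A genes, orphan nuclear receptors induced by cyclic AMP, were all lower. Nr4a3 (cluster 17413945) had a log2 signal of 3.70, 3.52 and 3.41 with bPTH(3-34), 6.72, 7.17 and 7.01 with hPTH(1-34), and 3.17, 3.82 and 3.12 with vehicle. Nr4a2 (cluster 17385374) was at 5.84, 5.91 and 5.98 with bPTH(3-34), 9.03, 8.99 and 8.84 with hPTH(1-34), and 6.55, 6.06 and 5.89 with vehicle. Nr4a1 (cluster 17315178) was at 6.36, 6.46 and 6.21, then 7.94, 8.08 and 7.36, and 6.21, 6.27 and 5.78 in the same order. In each of the 3 the fragments did not overlap, while bPTH(3-34) overlapped vehicle. The differences were 10.7-fold for Nr4a3, 8.24-fold for Nr4a2 and 2.73-fold for Nr4a1 (adjusted p = 5.6e-10, 1.3e-10 and 5.7e-06). Fos and Fosl2, partners of the AP-1 factor, were 1.87-fold and 1.94-fold lower, and Nfil3, a leucine zipper repressor, 2.58-fold lower. The 2 higher calls, named outside the rule, were Btg2 (1.36-fold) and Fosb (1.55-fold), and 1 remained without bPTH(3-34) replicate 2 or without hPTH(1-34) replicate 3.

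Parts of the promoters of Nr4a1, Nr4a2, Nr4a3 and Fos are shown because they hold CREB-type sites, which not all genes of large difference do. They come from RefSeq (GRCm38.p6), read 5′ to 3′ on the gene's strand, and capitals mark the CREB core TGACG or its reverse complement CGTCA.
Nr4a1, chr15:101266601-101266822, plus strand: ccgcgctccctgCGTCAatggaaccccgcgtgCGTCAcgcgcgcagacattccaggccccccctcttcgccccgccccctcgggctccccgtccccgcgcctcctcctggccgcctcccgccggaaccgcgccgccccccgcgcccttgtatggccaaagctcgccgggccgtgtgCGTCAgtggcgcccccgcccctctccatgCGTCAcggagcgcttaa
Nr4a2, chr2:57124098-57124215, minus strand: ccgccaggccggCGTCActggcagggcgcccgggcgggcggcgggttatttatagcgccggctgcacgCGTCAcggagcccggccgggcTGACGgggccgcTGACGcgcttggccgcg
Nr4a3, chr4:48045062-48045174, plus strand: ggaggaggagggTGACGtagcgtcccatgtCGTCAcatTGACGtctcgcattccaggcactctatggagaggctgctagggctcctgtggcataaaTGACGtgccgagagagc
Fos, chr12:85473749-85473840, plus strand: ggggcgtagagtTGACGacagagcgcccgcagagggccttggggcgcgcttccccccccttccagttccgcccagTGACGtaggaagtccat

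For 2 genes of growth factor and MAP kinase feedback, the capitals mark the full palindrome TGACGTCA, which contains the core on both strands. Dusp1, a MAP kinase phosphatase, was 1.81-fold lower with bPTH(3-34) and Errfi1, an inhibitor of the EGF receptor, 1.42-fold lower.
Dusp1, chr17:26508584-26508639, minus strand: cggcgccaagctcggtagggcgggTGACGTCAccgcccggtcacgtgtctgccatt
Errfi1, chr4:150854995-150855050, plus strand: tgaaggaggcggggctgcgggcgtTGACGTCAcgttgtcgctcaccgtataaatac

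Over the 250 bases before the start, on both strands, TGACG was found in 23.2% of the 16990 genes with a promoter in the table. It was in 35.6% of 668 genes called lower with bPTH(3-34), 25.6% of 972 called higher and 22.5% of those not called. The full TGACGTCA was in 2.30% of all, 4.79% of those lower (32 genes) and 1.03% of those higher (10 genes). Among genes with a mean log2 signal of 4 or more, which called genes mostly are, TGACG was in 30.1% of all, 38.1% of the lower and 25.4% of the higher. A match is only a match of letters within this window. The promoters printed above were chosen for holding a site. Fosl2 had no TGACG in the window, nor had Vdr, Cxcl14, Tnfsf11 and Kif21a of the 12 lowest genes. Cbarp and Iyd of those 12 had one, as had Nr4a3 and Nr4a2. Dgat1, Lrrc32, Prg4 and Baalc, also of those 12, had no matched promoter and were not searched.

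The fragments also differed at genes of other signalling arms. Of 28 genes of protein kinase C, phospholipase C and calcineurin, 9 were higher and 2 lower (median 0.12). Marcks, a protein kinase C substrate, was 1.77-fold higher, the atypical kinase gene Prkci 1.52-fold and the phospholipase gene Plcg1 1.43-fold. The lower calls were the calcineurin-regulated factor gene Nfatc4 (1.59-fold) and, outside the rule, Prkce (1.37-fold), and 1 lower call remained on leaving out bPTH(3-34) replicate 1 or 2 or any 1 of the hPTH(1-34) arrays. Of 21 MAP kinase phosphatases and feedback genes, 4 were lower and 2 higher (median -0.02). Map2k6, a kinase that activates p38, was 2.46-fold higher and the phosphatase gene Dusp10 1.88-fold lower. The other higher call, outside the rule, was Dusp6 (1.38-fold), and the count was 1 without bPTH(3-34) replicate 3 or without hPTH(1-34) replicate 2.

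Of 19 RGS genes, which switch off G protein signals, 3 were higher and 0 lower (median 0.08). The median was -0.01 without bPTH(3-34) replicate 2. Rgs4 was 2.58-fold higher (interval of the log2 difference 0.99 to 1.75), and Rgs1 and Rgs19 were 1.33-fold and 1.32-fold higher. Without hPTH(1-34) replicate 3, 1 call remained. Rgs1 was also not called without bPTH(3-34) replicate 2 or hPTH(1-34) replicate 2, and Rgs19 not without any 1 of the bPTH(3-34) arrays. Rgs2, an early cyclic AMP target in bone cells, was not called (log2 difference -0.28, interval -0.52 to -0.04).

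Of 16 factors that regulate osteoclasts, 6 were lower and 3 higher (median -0.04). Tnfsf11 encodes RANKL, the cytokine osteoclasts need to form (cluster 17308817). Its log2 signal was 4.70, 4.47 and 4.90 with bPTH(3-34), 7.23, 7.48 and 7.35 with hPTH(1-34), and 4.18, 4.28 and 4.25 with vehicle. bPTH(3-34) was 6.33-fold below hPTH(1-34) without overlap (adjusted p = 2.1e-08). All 3 bPTH(3-34) arrays also lay above all 3 vehicle arrays, with a log2 difference of 0.45 (interval 0.05 to 0.85) that was not called (adjusted p = 0.79).

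Tnfrsf11b encodes osteoprotegerin, the decoy that binds RANKL (cluster 17317046). It was at 6.51, 6.15 and 6.61 with bPTH(3-34), 5.60, 5.19 and 5.27 with hPTH(1-34), and 6.70, 6.87 and 6.56 with vehicle, 2.10-fold higher with bPTH(3-34) and without overlap (adjusted p = 0.00010). Il6, a cytokine that promotes osteoclast formation (cluster 17435725), was at 2.78, 2.42 and 3.28, then 5.04, 5.20 and 4.83, and 2.69, 2.41 and 2.86 in the same order. It was lower with bPTH(3-34) than with hPTH(1-34) by a log2 difference of -2.20 (adjusted p = 5.4e-06). With bPTH(3-34) and vehicle its signal was near the low end of the table, so the size of the change, and whether those 2 groups differ, is poorly measured there. Il34, a ligand of the CSF1 receptor, was 1.91-fold higher, and Tnf 2.80-fold lower.

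Among 20 genes that handle vitamin D, calcium or phosphate, 2 were lower and 2 higher (median -0.08). Besides Vdr, the calcium pump gene Atp2b4 was 1.45-fold lower. The vitamin D 25-hydroxylase gene Cyp2r1 was 1.79-fold and Rxra, the partner of the vitamin D receptor, 1.29-fold higher. Rxra was not called, leaving 1 higher call, without bPTH(3-34) replicate 1 or 3 or without hPTH(1-34) replicate 2 or 3. Fgf23, the phosphate-regulating hormone gene, was not called (difference -0.63, interval -1.07 to -0.18, adjusted p = 0.073).

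Of 38 BMP and TGF-beta genes, 7 were lower and 9 higher (median 0.03). The calls of largest size included 2 ligands and 1 antagonist. Bmp4 and Bmp2 were 3.95-fold and 3.29-fold higher with bPTH(3-34), and Grem1, which encodes the BMP antagonist gremlin, was 4.33-fold lower (log2 difference -2.11, interval -2.31 to -1.92).

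Of 47 Wnt and R-spondin genes, 11 were higher and 8 lower (median 0). Rspo3 (cluster 17240012) was at 10.02, 9.95 and 9.92 with bPTH(3-34), 8.13, 8.36 and 8.29 with hPTH(1-34), and 9.92, 9.97 and 9.90 with vehicle. It was thus 3.26-fold higher than with hPTH(1-34), without overlap, and 0.03 above vehicle on average on the log2 scale. Rspo2, a second R-spondin, was 2.90-fold and the Wnt receptor gene Fzd5 3.59-fold higher. Sost, the Wnt inhibitor of osteocytes, was not called at its low signal (difference -0.13, interval -0.50 to 0.23). The 8 lower calls became 5 without bPTH(3-34) replicate 1 or 3, and 4 without bPTH(3-34) replicate 2 or hPTH(1-34) replicate 1.

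Of 40 growth factors and receptors, 11 were higher and 6 lower (median 0.08). The receptor genes Pdgfrb and Egfr were 1.94-fold and 1.75-fold higher, and Vegfa, the main vessel growth factor, 1.77-fold lower. Igf1 was not called, and its interval lay within -0.20 to 0.15 on the log2 scale. The higher calls became 7 without bPTH(3-34) replicate 1 or 3, and the lower calls 3 without bPTH(3-34) replicate 3 or hPTH(1-34) replicate 1.

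Among 30 genes of matrix proteases and hyaluronan, 6 were lower and 7 higher (median 0.06). Has2, the main hyaluronan synthase, was at 7.37, 7.34 and 7.46 with bPTH(3-34), 9.26, 9.39 and 9.24 with hPTH(1-34), and 7.35, 7.39 and 7.48 with vehicle, a 3.75-fold difference without overlap (adjusted p = 1.3e-10). Cemip, needed for hyaluronan breakdown, was 3.19-fold higher. Of the aggrecan-cutting proteases, Adamts4 was 3.53-fold lower and Adamts5 2.25-fold higher. Mmp13, the collagenase of osteoblasts, was not called (difference 0.20, interval -0.02 to 0.41). The higher calls became 3 without bPTH(3-34) replicate 2 or hPTH(1-34) replicate 3, and 4 without bPTH(3-34) replicate 3.

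Of 22 genes of the bone matrix programme, 3 were lower and 0 higher (median 0.04). The mineralising phosphatase gene Alpl was 1.46-fold lower, and a second Alpl cluster differed by -0.79 against -0.55. Dlx3 and Msx2, homeobox genes, were 1.45-fold and 1.42-fold lower, but only Alpl stayed called, 1 lower call, without bPTH(3-34) replicate 3 or without hPTH(1-34) replicate 2 or 3. Msx2 was lost on leaving out any 1 of the 6 arrays. Col1a1 differed by 0.00 with an interval of -0.13 to 0.13, Bglap by 0.24 (-0.27 to 0.74) and Sp7, the osteoblast factor osterix, by 0.39 (0.10 to 0.67, adjusted p = 0.087). Of 14 osteocyte genes, Pdpn (podoplanin) and Gja1 (a connexin) were lower, by 1.94-fold and 1.70-fold, and 0 higher.

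In lipid storage, 3 of 28 genes were lower and 3 higher (median 0). Besides Dgat1, the lipid droplet gene Cidea was 3.33-fold and the second acyltransferase gene Dgat2 1.81-fold lower. G0s2, an inhibitor of fat breakdown, was 1.70-fold higher in the cluster used, while its other, dimmer cluster differed by -0.12. The remaining higher calls, outside the rule, were Plin3 and Cpt1a. In glucose use, 4 of 25 genes were lower and 3 higher (median 0.04). Slc16a1, a lactate transporter, was 3.89-fold lower and the pyruvate dehydrogenase kinase gene Pdk2 1.79-fold higher. The glucose counts were unsteady, with lower calls at 1 without bPTH(3-34) replicate 2 or hPTH(1-34) replicate 1 and at 2 without bPTH(3-34) replicate 1 or 3 or hPTH(1-34) replicate 2, and higher calls at 1 without bPTH(3-34) replicate 1 or 3 or hPTH(1-34) replicate 1.

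Of 18 cholesterol synthesis genes, 4 were lower and 3 higher (median 0). Pmvk, an enzyme of the mevalonate pathway, was 4.49-fold lower, and Hsd17b7 and Mvk were 1.61-fold and 1.54-fold lower. Sc5d was 1.33-fold higher, and the higher calls became 1 without bPTH(3-34) replicate 1 or without hPTH(1-34) replicate 2 or 3.

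Of 35 inflammation and acute phase genes measured, 15 were lower with bPTH(3-34) and 0 higher (median -0.40). Besides Cxcl14, Il6 and Tnf, the neutrophil-attracting chemokine gene Cxcl5 was 2.45-fold and Ptgs2, the inducible prostaglandin synthase, 2.15-fold lower. The macrophage and osteoclast marker list moved little beside this, with 1 of 27 lower (Fcgr1), 0 higher and a median of 0.05. Its summed level, given as the log2 of the mean signal per marker, ran from 9.65 to 9.77 with bPTH(3-34) and from 9.57 to 9.70 with hPTH(1-34). Fcgr1 was not called without bPTH(3-34) replicate 2 or without hPTH(1-34) replicate 1 or 2, which leaves 0 calls. Of 22 interferon-stimulated genes, 2 were higher (Mx2 and Ifih1) and 0 lower. They came to 0 without bPTH(3-34) replicate 3 or hPTH(1-34) replicate 3, and to 1 without bPTH(3-34) replicate 1 or hPTH(1-34) replicate 2.

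Clock genes differed in both directions, with 5 of 17 lower and 5 higher (median -0.06). Arntl, for the clock activator BMAL1, was 1.88-fold and the repressor gene Bhlhe40 1.86-fold lower, and the period gene Per3 2.27-fold higher. The higher calls became 3 without bPTH(3-34) replicate 1 or 2 or hPTH(1-34) replicate 3 and 2 without hPTH(1-34) replicate 2, and the lower calls 3 without bPTH(3-34) replicate 1. Of 23 heat shock and unfolded protein genes, 4 were lower and 0 higher, led by the chaperone gene Hsph1 (3.08-fold).

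Of 23 genes of amino acid stress and transport, 2 were lower, the amino acid transporter gene Slc7a5 (2.08-fold) and the stress-induced Ddit4 (1.91-fold), and the transporter gene Slc38a2 was 1.49-fold higher. The lower calls became 4 without hPTH(1-34) replicate 3. Among 34 cell cycle genes, 7 were higher and 1 lower (median 0.24), all by small amounts, such as the mitotic kinesin gene Kif20a (1.30-fold). That count rested on the arrays and the scaling. It came to 3 without bPTH(3-34) replicate 2 or 3 or hPTH(1-34) replicate 1, to 4 without any 1 of the other 3 arrays, and to 1 after quantile normalization, and it was 13 with only genes of a mean log2 signal of 4 or more. The lower call, Cdkn1a, was lost without bPTH(3-34) replicate 3 or hPTH(1-34) replicate 1 or 2.

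Of the remaining marker lists, muscle and smooth muscle held the largest single difference. Cnn1, the smooth muscle calponin gene, was at 8.54, 8.66 and 8.67 with bPTH(3-34), 10.82, 10.79 and 10.81 with hPTH(1-34), and 8.74, 8.75 and 8.63 with vehicle. It was 4.54-fold lower (adjusted p = 3.5e-12) and without overlap between the fragments, while 1 other of 16 muscle markers was called, Smtn, higher by 1.24-fold. Smtn was not called without bPTH(3-34) replicate 1 or 2 or without any 1 of the hPTH(1-34) arrays. The summed muscle level was 8.65 to 8.69 with bPTH(3-34) and 8.80 to 8.82 with hPTH(1-34), and the vehicle range, 8.62 to 8.83, spanned both. Endothelial markers had 1 of 15 lower (Kdr) and 1 higher (Eng), and Kdr was lost on leaving out any 1 of the 6 arrays. Chondrocyte markers had 1 of 16 higher (Sox6, 1.88-fold), adipocyte markers 1 of 12 higher (Pparg, 1.53-fold), and lymphoid and erythroid markers 0 of 5. Acan, a cartilage matrix gene at an adjusted p of 0.050, was called lower without bPTH(3-34) replicate 1. It was also called with a replicate block, a minimum mean signal of 4, trended and robust spread, and quantile normalization. The part of cell type proportions in these results was not tested.

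bPTH(3-34) was compared with 4 peptides at 100 nM and 4 h. Besides the 2068 genes against hPTH(1-34), 2027 genes (9.14%) were called against hPTH(1-31) and 1599 (7.21%) against PTH(1-36). These 3 comparisons share the bPTH(3-34) arrays. At Vdr the log2 difference was -3.93 against hPTH(1-34), -4.03 against hPTH(1-31) and -3.78 against PTH(1-36), and at Tnfsf11 it was -2.66, -2.67 and -2.66. At Prg4 it was -2.59, -2.28 and -1.58, and at Cxcl14 -2.68, -2.39 and -1.92. With p-values adjusted over the genes of all 4 pairs together, 1792 genes were called against hPTH(1-34).

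Against hPTH(7-34), a human fragment that lacks 4 more residues at the same end and so again differs in species, only 11 genes were called (0.0496%), all lower with bPTH(3-34), and 1124 had an unadjusted p under 0.05. The 5 with the largest differences were Acod1, Gpr84, Cxcl10, Nlrp1c-ps and Tnip3. Acod1, which makes itaconate in activated macrophages, was at 4.66, 4.19 and 3.97 with bPTH(3-34), 5.90, 6.08 and 7.22 with hPTH(7-34), and 4.46, 4.82 and 3.92 with vehicle. The difference was -2.13 on the log2 scale (adjusted p = 0.0035), with no overlap, and hPTH(1-34) was at 5.62, 5.54 and 5.60, also above bPTH(3-34). Gpr84, a fatty acid receptor of myeloid cells, was at 4.79, 4.38 and 4.56 with bPTH(3-34) and 5.82, 5.84 and 6.66 with hPTH(7-34), a difference of -1.53 (adjusted p = 0.0059). Cxcl10, an interferon-induced chemokine, was at 6.40, 5.99 and 5.87 against 7.33, 7.25 and 8.21, a difference of -1.51 (adjusted p = 0.022), while against hPTH(1-34) Cxcl10 was not called (-0.49, interval -0.99 to 0.02). Tnf differed by -1.03 (adjusted p = 0.020) and Tnip3, an NF-kappaB inhibitor, by -1.15 (adjusted p = 0.0030). The other called genes, named outside the rule, were Clec4e, Ccl12, Nfkbie, Tlr2 and Irf1. For Irf1 the difference was -0.59 against hPTH(7-34) and -0.02 against hPTH(1-34). Tlr2 was called between bPTH(3-34) and hPTH(1-34) too, but not without bPTH(3-34) replicate 2 or 3 or hPTH(1-34) replicate 1 or 3.

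The count of 11 was 2 without bPTH(3-34) replicate 2, 4 without bPTH(3-34) replicate 3, 4 without hPTH(7-34) replicate 3 and 0 when only the 6 arrays of these 2 groups were fitted. Without hPTH(7-34) replicate 1, 8 genes were called lower and 1 higher with bPTH(3-34), and without its replicate 3, 3 lower and 1 higher. Macrophage markers summed to 9.71 to 9.86 with hPTH(7-34), against 9.65 to 9.77 with bPTH(3-34), and their part in these differences was not tested.

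**Figure D5:**
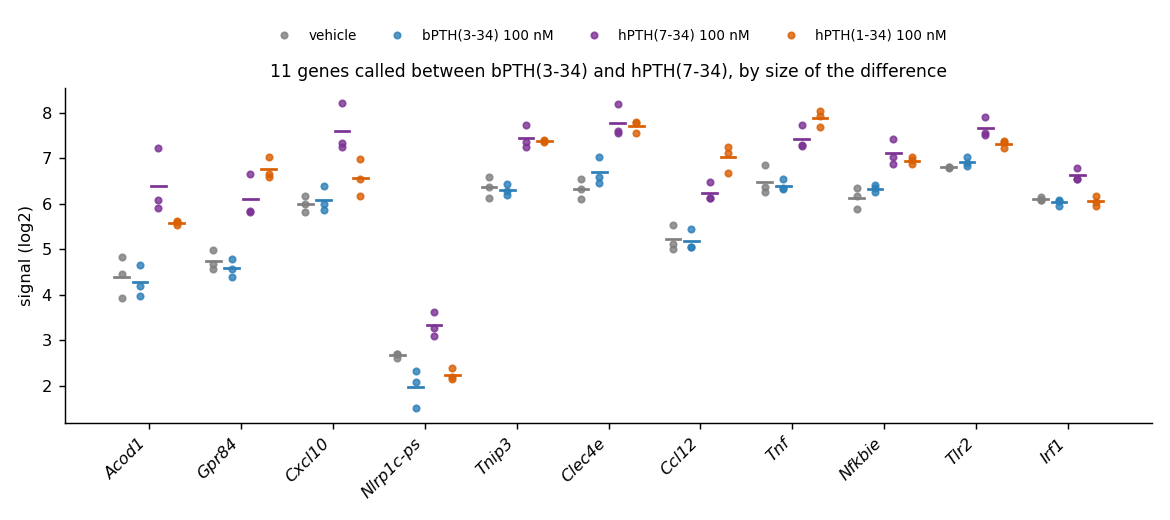
Log2 signal of the 11 genes called between bPTH(3-34) and hPTH(7-34), ordered by the size of that difference; each point is 1 array and each bar the mean of 3, in vehicle, bPTH(3-34), hPTH(7-34) and hPTH(1-34). All 3 hPTH(7-34) arrays lie above all 3 bPTH(3-34) arrays at each gene, while hPTH(1-34) lies beside hPTH(7-34) at some genes, such as Tnip3, and beside bPTH(3-34) at others, such as Irf1.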

How the data were processed

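Values were the deposited signals of 21 arrays of mouse calvarial osteoblast cultures. RMA and Affymetrix Expression Console are the tools listed in the submitters' processing notes, with no version, setting or base of the logarithm. The authors' deposited values ran from 0.25 to 13.6 and were read as log2, on which every fold rests.

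Of 41345 transcript clusters, the platform annotation gave 1 symbol to 23521 and several to 1814, and 16010 were not in it. For 1082 genes with more than 1 cluster, that of highest mean signal over the 21 arrays was used, leaving 22180 genes. All 21 arrays entered 1 model of 7 groups of 3 with lmFit and eBayes (limma 3.58.1 under R 4.3.3, 14 residual degrees of freedom), without a replicate block. p-values were two-sided, adjusted by Benjamini-Hochberg over all genes, and called under 0.05. Intervals cover 95%. The script was tested on simulated data. Promoters came from RefSeq, matched by symbol. The number of arrays limits the precision.

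Named were the 12 highest and 12 lowest called genes without overlap between the fragments, the 8 uncalled response genes of largest change, up to 4 members of each list by adjusted p, the 5 genes farthest apart in each direction against hPTH(7-34) among called genes without overlap, and a panel of 24 genes. The same rule applied to bPTH(3-34) against vehicle named none. Predicted genes, clones, small RNAs, olfactory and vomeronasal genes, and segments of immunoglobulin or T cell receptor genes were left out, except from the lists and the panel. Members, lists and the panel were chosen with earlier results of these data known. Alternatives were a replicate block, leaving out each array, a minimum mean signal of 4, only the 2 groups compared, trended and robust spread, arrays centred on their medians, all clusters of a gene averaged, all clusters tested, 4 pairs adjusted together, other minimum folds for response genes and, chosen after the data were seen, quantile normalization.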

Additional observations from a re-analysis of the deposited data

Results flagged for a closer look

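Transcript clusters without a single gene symbol were outside the comparison of genes. Of 17824 such clusters, 274 (1.54%) were called in limma between bPTH(3-34) and hPTH(1-34), 155 lower and 119 higher with bPTH(3-34). In the same fit, 1869 of all 41345 clusters (4.52%) were called, so the share was lower here. At 2-fold or more 59 differed, 41 lower and 18 higher. The median log2 signal of the 274 was 6.12. Against vehicle 0 were called with bPTH(3-34), and 1269 (7.12%) had an unadjusted p under 0.05. They are noted because they carry a difference that the comparison of genes leaves out. Of the 17824 clusters, 1814 had several symbols in the annotation and 16010 were not in it.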

How the results depend on the processing

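bPTH(3-34) against vehicle had 0 called genes under each alternative run. Fitting only the 2 groups compared gave 1217 calls against hPTH(1-34) (574 lower, 643 higher), 1122 against hPTH(1-31), 712 against PTH(1-36), 0 against hPTH(7-34), and 936 for hPTH(1-34) against vehicle; there each gene's spread rests on 6 arrays. A trended, robust spread gave 18 against hPTH(7-34), 17 lower and 1 higher with bPTH(3-34). With a minimum mean of 4, 9405 of 12217 genes (77%) had intervals within 1.5-fold between the fragments. With no minimum fold, 1046 of 1299 response genes were called toward vehicle, and with a 2-fold minimum 184 of 187. Leaving out 1 array at a time gave 1534 to 1707 calls against hPTH(1-34), 2 to 9 against hPTH(7-34) and 506 to 551 response genes toward vehicle; without bPTH(3-34) replicate 1, 1 response gene was called away from it. Same-numbered arrays of the 2 fragments had correlations of deviations of -0.003, 0.055 and 0.043 over all genes, and of 0.054, 0.148 and 0.159 over genes with a mean of 4 or more, where those of unlike numbers ran from -0.172 to 0.036; not every pair passed 0.1 on either, so the arrays were not treated as paired. With a replicate block 2405 genes were called against hPTH(1-34), 0 for bPTH(3-34) against vehicle and 10 against hPTH(7-34). Of 114 named genes called, 18 were lost under at least 1 of 14 settings and 0 reversed, and of 40 not called, 11 were called under at least 1. Low signal limits precision: among the 5545 genes of lowest signal, 58.5% had an interval of bPTH(3-34) against vehicle within 1.5-fold, and among the 5545 of highest signal 98.6%.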
